A study of Homo sapiens with 5 samples.

Results

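The peaks of PHF8 on chromosomes 3 and 7 were taken from the 3 deposited peak lists by the chromosome of each peak, which gave 6251 of the 62508 listed peaks. Chromosome 3 held 1150, 1117 and 1098 peaks in replicates A, B1 and B2, and chromosome 7 held 998, 974 and 914. Both chromosomes were chosen by measured values of these same lists, as the autosomes with the strongest and the weakest promoter peaks, so every difference between them is given here as a description with no test. Chromatin immunoprecipitation followed by sequencing (ChIP-seq) was performed with an anti-PHF8 antibody in the melanoma cell line SKMEL-147, an established human line, in 3 replicates (A, B1 and B2), beside 2 input chromatin libraries (A and B). Where 3 values of a quantity are given, they stand in the order A, B1, B2. No treatment and no change of genotype is given in the labels of these samples, ChIP from PHF8-depleted cells was not analysed here, and whether the replicates came from separate cultures is not stated, so the spread between them may be technical.

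PHF8 is a histone demethylase that reads trimethylated lysine 4 of histone H3, the mark of active promoters, through its PHD finger, and removes methyl groups linked to silencing through its Jumonji C domain. It is therefore mostly found close to the transcription start sites (TSSs) of active genes, many of which lie in CpG islands, stretches of DNA rich in G, C and unmethylated CpG. In such an assay the fold enrichment of a peak is the number of ChIP fragments over its summit relative to the number expected from the input, so that a peak value carries both the ChIP signal and the local background.

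The label of strongest and weakest was borne out only in part. By the mean over replicates of the median fold enrichment of promoter peaks (those within 1 kb of an annotated TSS), chromosome 3 ranked 3 of 22 autosomes, with chromosomes 20 and 9 above it, and chromosome 7 ranked 20, with chromosomes 18 and 6 below it. In replicate A the medians ran from 19.1 on chromosome 6 to 26.2 on chromosome 20, a range that chromosomes 3 and 7, at 25.8 and 19.9, nearly spanned. By width, chromosome 3 ranked 1 and chromosome 7 ranked 22 in each replicate. The pair is therefore described as chromosomes 3 and 7 and not as extremes of peak strength.

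The sequences at the strongest and weakest promoter peaks, and at the strongest regions away from any TSS, show what lies under these summits. The strongest and weakest were taken by the mean over replicates of the rank of fold enrichment. Promoters were ranked only at protein-coding genes with a promoter peak in all 3 replicates, each by its strongest promoter peak. The weakest promoter peak is therefore that of the lowest ranked gene, and other listed promoter peaks may be weaker. Each is on the plus strand of hg19, centred on the summit in replicate A, with CpG dinucleotides in capitals. Windows that touch an untranslated region, those of YKT6 and KLF14, were cut to 30 bases.
CNBP, strongest promoter peak of chromosome 3, chr3:128902991-128903091: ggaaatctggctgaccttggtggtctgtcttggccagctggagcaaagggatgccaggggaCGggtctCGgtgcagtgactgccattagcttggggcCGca
SLITRK3, weakest promoter peak of chromosome 3, chr3:164914684-164914784: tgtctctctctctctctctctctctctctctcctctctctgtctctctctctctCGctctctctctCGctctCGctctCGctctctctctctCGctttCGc
Strongest region of chromosome 3 outside TSS windows, chr3:129345843-129345943: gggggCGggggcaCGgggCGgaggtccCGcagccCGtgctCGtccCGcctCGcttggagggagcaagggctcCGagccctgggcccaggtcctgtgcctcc
YKT6, strongest promoter peak of chromosome 7, chr7:44240714-44240743: gCGgcctgagggCGCGgagccatgaagctg
KLF14, weakest promoter peak of chromosome 7, chr7:130418818-130418847: actCGgCGgCGaagtagtccaggcaCGcca
Strongest region of chromosome 7 outside TSS windows, chr7:20837515-20837615: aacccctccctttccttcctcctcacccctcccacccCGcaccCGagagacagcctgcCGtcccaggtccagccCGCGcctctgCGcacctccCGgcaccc

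The number of CpGs under the summit did not follow peak strength in these examples. The CNBP window held 3 CpGs at 61.4% GC, fewer than the 9 and 7 in the regions outside TSS windows of chromosomes 3 and 7. The window of the lowest ranked gene of chromosome 3, SLITRK3, was a run of CT repeats with 6 CpGs. Over a wider window of 250 bp on either side of the summit, the median GC content of promoter peaks was 65.9% on chromosome 3 and 66.7% on chromosome 7, and the observed over expected CpG ratio was 0.805 and 0.822. Island-like sequence (GC content of at least 50% and a CpG ratio of at least 0.6) was present at 83.1% ± 1.7 of promoter peaks on chromosome 3 and 86.0% ± 1.8 on chromosome 7 (SD, n = 3), so the chromosome with the higher fold enrichment was the slightly poorer one in island sequence.

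PHF8 promoter peaks were stronger on chromosome 3. The median fold enrichment of promoter peaks was 25.8, 14.99 and 14.5 on chromosome 3, against 19.9, 11.6 and 11.8 on chromosome 7. Chromosome 3 was higher in 3 of 3 replicates, by 0.35 ± 0.05 on the log2 scale or 1.27 ± 0.043 times (SD of the paired differences and ratios, n = 3). Replicate A gave higher values than B1 and B2 on both chromosomes, so the ratio varied less than the levels. The difference was larger in the fragments recovered at the summits, with medians of 87, 59 and 60 on chromosome 3 and 53, 35 and 36 on chromosome 7, a ratio of 1.67 ± 0.022.

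The local background moved with these values. The mean background expected at promoter summits was 2.41, 2.92 and 3.06 fragments on chromosome 3, the highest of the 22 autosomes in each replicate, and 1.75, 2.10 and 2.24 on chromosome 7, which ranked 21 by its mean. The ratio of the backgrounds was 1.38 ± 0.012. The peak caller uses a genome-wide expectation (1.567, 1.932 and 2.044 fragments) wherever the local input is not higher. Only 1.57% ± 0.12 of the peaks on chromosome 3 carried this genome-wide background, against 70.2% ± 2.1 on chromosome 7 and 35.8% to 37.6% over all chromosomes. Neither was the extreme: chromosome 20 was lower still at 1.22%, and chromosomes 4, 18 and 21 were above chromosome 7, at 73.8%, 75.9% and 78.1%. Without the 1 that the caller adds to both terms, the ratio of fragments to background was higher on chromosome 3 by 0.23 ± 0.05 on the log2 scale. The part of the background in the difference of fold enrichment was not tested, since almost no peaks of chromosome 3 carry the genome-wide background: at the 16, 17 and 14 promoter peaks that did, the median fold enrichment was 23.6, 10.2 and 12.6, against 19.9, 11.3 and 11.8 at the 625, 649 and 601 of chromosome 7.

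**Figure D1:**
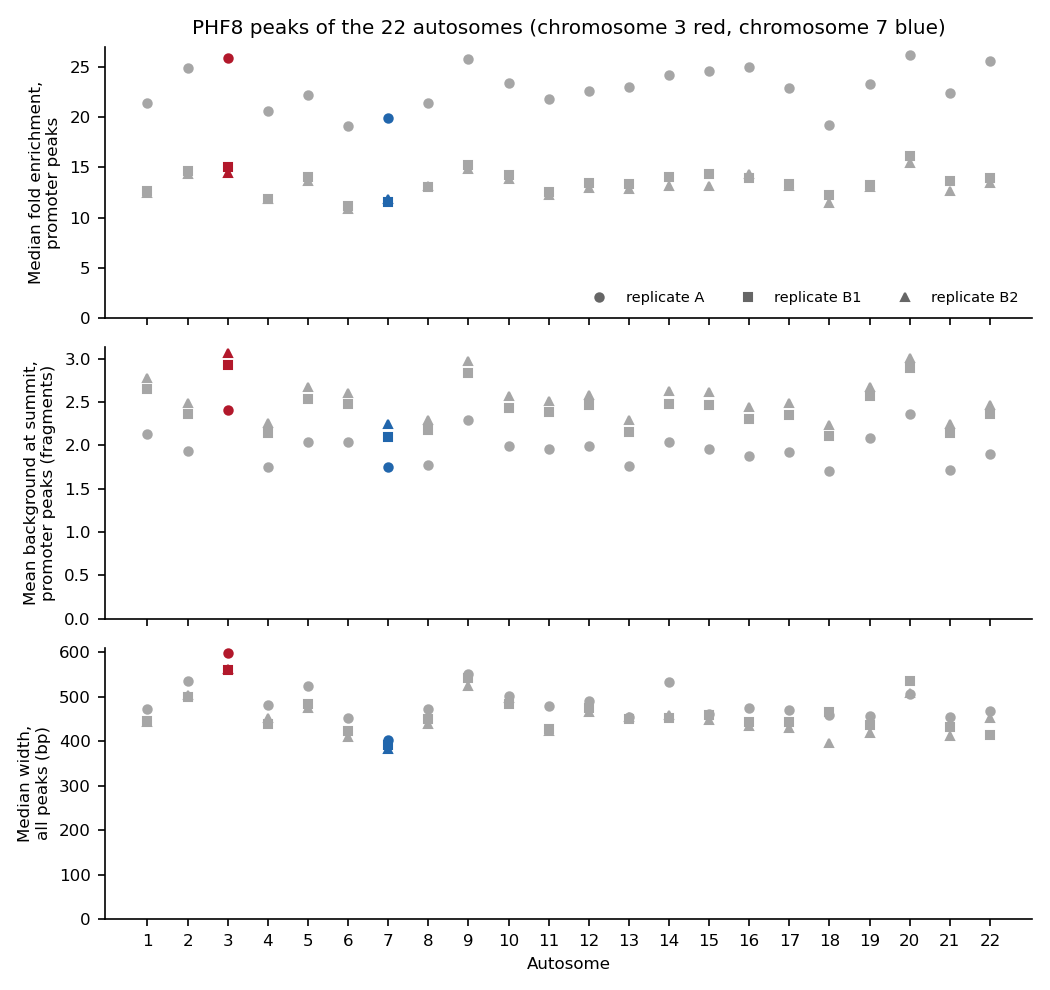
Median fold enrichment of promoter peaks (top), mean background in fragments at promoter summits (middle) and median width of all peaks in bp (bottom) for each of the 22 autosomes, with 1 symbol per replicate; chromosome 3 is red and chromosome 7 blue. Chromosome 3 has the highest background and width in each replicate, while chromosomes 9 and 20 lie near or above it in fold enrichment and near it in background.

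Across the 22 autosomes the median number of summit fragments and the mean background had a Spearman's rho of 0.72, and 0.62 across the 20 others. For fold enrichment and background rho was 0.53, and 0.39 across the 20 others. These are descriptions over chromosomes of the same 3 libraries, and both measures of a peak come from the same pair of deposited values. Between the median fold enrichment outside TSS windows and the background at promoter summits, rho was -0.39, and -0.27 across the 20 others. The backgrounds of B1 and B2 followed each other over shared regions (rho of 0.85 on chromosome 3 and 0.55 on chromosome 7), whereas that of A followed neither closely (rho from 0.19 to 0.24). B1, B2 and 1 input share a letter in their labels, so the backgrounds of B1 and B2 may not be independent measurements.

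Peaks were also wider on chromosome 3. The median width was 599.5, 561 and 563.5 bp on chromosome 3 and 402, 391 and 383 bp on chromosome 7, a difference of 183 ± 14 bp (SD, n = 3). At promoters the medians averaged 653 and 410 bp, whereas over all peaks outside promoters they averaged 238 and 250 bp. At regions outside promoters with a peak in all 3 replicates, however, the median peak widths were 828, 725 and 714 bp on chromosome 3 and 516, 478 and 425 bp on chromosome 7, wider on chromosome 3 in each replicate. Peaks over 1 kb wide made up 23.5% ± 3.3 of chromosome 3, the highest share of the autosomes, and 8.90% ± 2.4 of chromosome 7, the lowest. Peaks covered 0.750 Mb of chromosome 3 and 0.480 Mb of chromosome 7.

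The number of peaks relative to annotation depended on how TSSs were counted. Per 100 distinct annotated TSS positions (13538 on chromosome 3 and 10590 on chromosome 7) there were 8.29 ± 0.19 peaks on chromosome 3 and 9.08 ± 0.41 on chromosome 7, ranks 19 and 11 of 22. With 1 TSS per gene, chromosome 3 had 2.86 more peaks per 100 than chromosome 7. Per protein-coding gene (1083 and 933) the numbers were 1.04 ± 0.024 and 1.03 ± 0.046, which differed by less than the replicates did. TSS windows held 89.0% ± 2.6 of peaks on chromosome 3 and 91.7% ± 1.4 on chromosome 7.

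The share of peaks overlapping a peak in each of the other replicates was alike, at 87.6% ± 6.2 and 87.5% ± 7.1. Merged over replicates, the peaks formed 1155 regions on chromosome 3, of which 875 or 75.8% had a peak in all 3 replicates, and 1002 regions on chromosome 7, of which 761 or 75.9% did, close to the 73.7% over all chromosomes. Across the regions in all 3 replicates the fold enrichment of B1 and B2 had a Spearman's rho of 0.96 on chromosome 3 and 0.93 on chromosome 7, and that of A with either was 0.89 on both. The summit lay downstream of the nearest TSS in 60.9% ± 2.7 of promoter peaks on chromosome 3 and 61.6% ± 0.7 on chromosome 7, leaving out divergent pairs within 2 kb, again within the spread.

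The higher median fold enrichment of chromosome 3 was seen at island-like promoter peaks, and not in the median of the other peaks. At island-like promoter peaks (a mean of 829 on chromosome 3 and 758 on chromosome 7) the median fold enrichment was 30.9, 17.5 and 16.7 on chromosome 3 and 22.6, 13.0 and 12.5 on chromosome 7, a ratio of 1.35 ± 0.015. At promoter peaks without such sequence the medians were 8.01, 6.84 and 6.10 against 8.97, 6.80 and 6.89, and chromosome 3 was higher in 1 of 3 replicates. The median summit fragments of these peaks were higher on chromosome 3 in 3 of 3 replicates, at 28, 26 and 23.5 against 24, 20 and 21. Their backgrounds averaged 2.94 and 2.07 fragments. Outside TSS windows the order was the reverse in 3 of 3 replicates, with medians of 5.76, 5.45 and 5.11 on chromosome 3, rank 21 of 22, and 7.402, 5.80 and 5.96 on chromosome 7, rank 5. The backgrounds differed in each class: they averaged 2.77 and 2.02 fragments at island-like promoters and 2.85 and 2.07 outside TSS windows, the latter beside medians of 20 and 18.3 summit fragments. The part of the background in these differences was not tested.

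**Figure D2:**
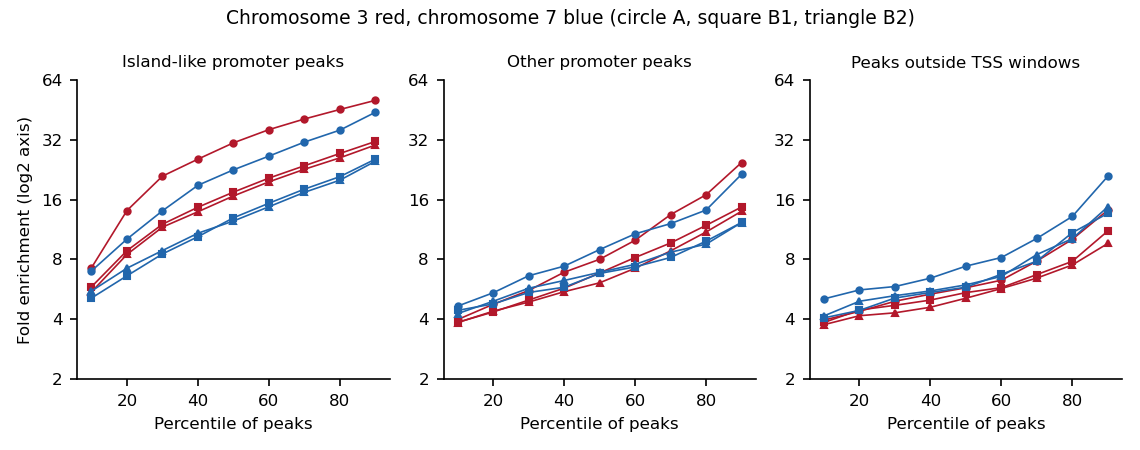
Fold enrichment (log2 axis) at percentiles 10 to 90 of the peaks in steps of 10, for island-like promoter peaks (left), other promoter peaks (middle) and peaks outside TSS windows (right), with 1 line per replicate, chromosome 3 red and chromosome 7 blue. At island-like promoters the red line lies above the blue one of the same replicate from the 20th to the 90th percentile, and outside TSS windows it lies below it except at the 20th percentile in B1.

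At island-like promoters the ratio of chromosome 3 to chromosome 7 was 1.06 ± 0.076 at the 10th percentile, 1.41 ± 0.091 at the 30th and 1.19 ± 0.041 at the 90th. The weakest of these peaks thus differed by less than the spread, and the middle of the distribution differed most. At other promoter peaks the ratio was 0.876 ± 0.023 at the 10th percentile, 1.10 ± 0.084 at the 70th and 1.16 ± 0.031 at the 90th, so among the stronger of these peaks chromosome 3 was the higher in 3 of 3 replicates. At bound protein-coding genes without island-like sequence at the TSS, the medians were higher on chromosome 3, at 31.8, 18.6 and 17.9 against 25.7, 14.3 and 13.8. That is a different measure, taken from the strongest promoter peak of each gene, whose summit may itself lie in island-like sequence. GNL3, for example, is counted without such sequence but shares its peak with PBRM1, which has it.

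Within each chromosome, promoter peaks exceeded the others. The difference of log2 median fold enrichment was 2.16, 1.46 and 1.5 on chromosome 3 (mean 1.71 ± 0.40, SD, n = 3) and 1.42, 1.00 and 0.99 on chromosome 7 (mean 1.14 ± 0.25). It had the same sign in 3 of 3 replicates on both. Flipping the signs of the 3 replicates in an exact permutation test (two-sided) gave p = 0.25 on both, the smallest this design allows (0.25 after Benjamini-Hochberg adjustment over 4 tests). With the same sign in 3 of 3 replicates the test can give no other value, so it decides nothing here. The promoter values in this contrast are also those on which both chromosomes were chosen.

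The arms of chromosome 7 differed more than those of chromosome 3. Promoter peaks of the short arm of chromosome 7 had a median fold enrichment of 23.8, 13.98 and 13.5, and those of its long arm 18.7, 10.9 and 11.2. The log2 difference of short minus long arm was 0.35, 0.36 and 0.28 (mean 0.33 ± 0.04, SD, n = 3). On chromosome 3 it was 0.03, 0.12 and 0.12 (mean 0.09 ± 0.05). The same exact test gave p = 0.25 for each, again the smallest possible and the only value it can give when the 3 signs agree. The arm values are parts of the promoter values on which both chromosomes were chosen. The short arm of chromosome 7 thus lay between chromosome 3, which exceeded it by 0.11 ± 0.01 on the log2 scale, and the long arm of chromosome 7, which chromosome 3 exceeded by 0.43 ± 0.05 (both comparisons were added after the arms had been seen).

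**Figure D3:**
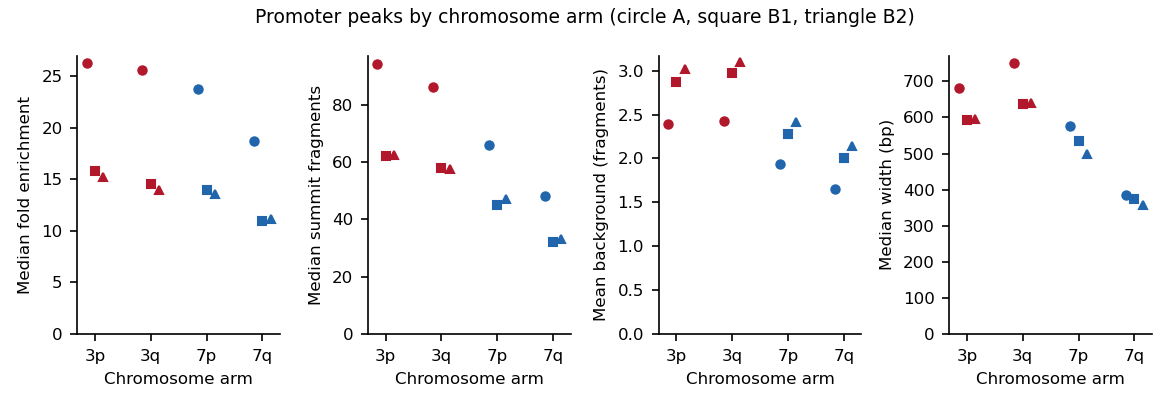
Median fold enrichment, median summit fragments, mean background in fragments and median width in bp of promoter peaks on the short (p) and long (q) arms of chromosomes 3 (red) and 7 (blue), with 1 symbol per replicate. The arms of chromosome 3 are alike, and on chromosome 7 the long arm is lowest in all 4 measures in each replicate.

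The background, fragments and widths stepped down with the arm as well. Promoter summits of the long arm of chromosome 7 had a mean background of 1.65, 2.002 and 2.15 fragments, against 1.93, 2.28 and 2.41 on the short arm. The genome-wide background applied to 89.3% ± 2.0 of long-arm peaks and to 38.4% ± 3.3 of short-arm peaks. Median promoter fragments were 48, 32 and 33 on the long arm and 66, 45 and 47 on the short arm, and median promoter widths averaged 373 and 538 bp. The 2 arms were nearly alike in sequence, with a median GC content of 66.7% and 66.6% and island-like sequence at 86.5% and 85.3% of promoter peaks. On chromosome 3 the mean backgrounds of the short and long arms averaged 2.76 and 2.83 fragments, and the median fragments 72.8 and 67.2. The part of the background in the difference between the arms was not tested.

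Bins of 10 Mb, numbered from the end of the short arm, showed how local these levels were. With at least 10 promoter peaks in each replicate, 19 of the 20 bins of chromosome 3 and all 16 of chromosome 7 could be used. The lowest mean background of any bin on chromosome 3 was 2.20, 2.79 and 2.81, and the highest on chromosome 7 was 2.09, 2.38 and 2.56. The bins of the 2 chromosomes therefore did not overlap in background in any replicate. Along chromosome 7 the share of peaks at the genome-wide background was 24.4% to 54.5% in bins 1 to 6 and 82.2% to 93.9% in bins 7 to 16, a step at the centromere.

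Fold enrichment, in contrast, varied from bin to bin within each chromosome. The mean over replicates of the median promoter fold enrichment ran from 13.1 in bin 8 to 23.3 in bin 14 of chromosome 3, and from 10.3 in bin 12 to 23.1 in bin 6 of chromosome 7. The highest bin exceeded the lowest by 1.79 times on chromosome 3 and 2.25 times on chromosome 7. These ratios cannot be set against the 1.27 between the chromosomes, since they take the extremes of many bins with few peaks each. Bin 8 of chromosome 3 held 23, 26 and 23 promoter peaks, and bin 6 of chromosome 7 held 20, 18 and 20. In all 3 replicates, 12 of 19 bins of chromosome 3 were above the median of chromosome 7, and 10 of 16 bins of chromosome 7 were below that of chromosome 3. The ranges of the bins thus overlapped, and the order of bins was kept between replicates with a rho of 0.66 to 0.84 on chromosome 3 and 0.87 to 0.93 on chromosome 7.

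**Figure D4:**
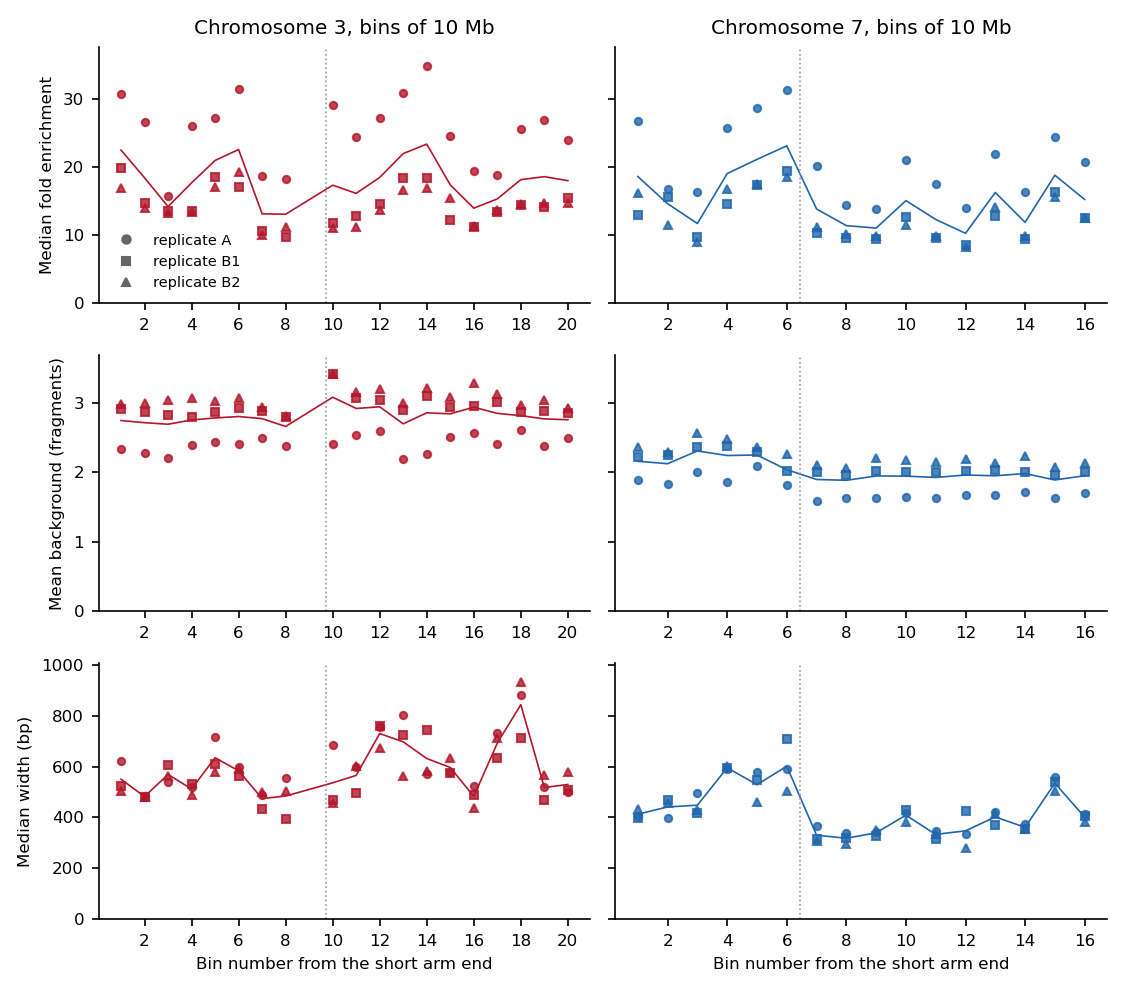
Median promoter fold enrichment (top), mean background in fragments at promoter summits (middle) and median width of all peaks in bp (bottom) in bins of 10 Mb along chromosomes 3 (left, red) and 7 (right, blue), with symbols for the replicates, a line through their mean and a dotted line at the centromere. The background is flat along chromosome 3 and steps down at the centromere of chromosome 7, while fold enrichment rises and falls within both.

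The bin of chromosome 3 with the highest mean, bin 14 (chr3:130000001-140000000), had medians of 34.8, 18.3 and 16.9. It was the highest in A only, with bin 1 leading in B1 at 19.8 and bin 6 in B2 at 19.2, and 38 of its 60 protein-coding genes carried promoter peaks in all replicates. Its strongest promoters were those of MSL2, a subunit of a histone H4 acetyltransferase complex, PIK3CB, a catalytic subunit of phosphoinositide 3-kinase, and NUDT16. The bin with the lowest mean, bin 8 (chr3:70000001-80000000), had medians of 18.2, 9.73 and 11.2, the lowest in B1 only, and held the promoters of EIF4E3 and of the axon guidance receptor ROBO1 as its strongest. On chromosome 7 bin 6 (chr7:50000001-60000000), the highest in each replicate, had medians of 31.2, 19.4 and 18.6. Its leading promoters were the shared one of PSPH, the last enzyme of serine synthesis, and CCT6A, a chaperonin subunit, and that of LANCL2. Bin 12 (chr7:110000001-120000000), the lowest by its mean and in B1 and B2, had medians of 14.0, 8.53 and 8.21, with the promoter of IFRD1 and overlapping gene models as the strongest.

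On chromosome 7 the bin with the strongest promoter peaks was the one sparsest in peaks. Bin 6 of that chromosome had the fewest peaks per 100 TSS positions on it, 4.66 ± 0.26, and bin 1 had the most, 15.2 ± 1.1. On chromosome 3 the density ran from 6.16 ± 0.60 in bin 1 to 11.0 ± 0.77 in bin 6, both among the stronger bins of that chromosome. As a description over bins of the same libraries, rho between fold enrichment and density was 0.03 over the 19 bins of chromosome 3 and -0.30 over the 16 of chromosome 7. For fold enrichment and background it was -0.01 and 0.31, and over all 35 bins 0.36. For width and background it was 0.29 and 0.62, and 0.71 over all 35 bins, where the 2 chromosomes differ in both measures. For width and fold enrichment it was 0.45 and 0.76. For fold enrichment and the number of TSS positions in a bin it was 0.75 on chromosome 3 and 0.16 on chromosome 7.

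PHF8 was present at most protein-coding promoters of both chromosomes. A promoter peak in all 3 replicates was found at 702 of 1083 protein-coding genes on chromosome 3, 64.8% (95% Wilson interval 61.9% to 67.6%), and at 542 of 933 on chromosome 7, 58.1% (54.9% to 61.2%), where the share over all chromosomes was 60.2%. No peak in any replicate was found at 350 and 365 genes. For lncRNA genes the shares were 23.5% and 21.5%, against 19.7% over all chromosomes. At genes whose TSS lay in island-like sequence, 550 of 655 or 84.0% were bound on chromosome 3 and 429 of 564 or 76.1% on chromosome 7, and at other genes 35.5% and 30.6%. These intervals cover counting error only, and a gene is called bound by peaks that other genes may share.

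The strongest promoters of chromosome 7 lay on its short arm. The short arm held 34.9% of the bound protein-coding genes of the chromosome, but 42 of the 55 at or above the 90th percentile and 8 of the strongest 8. On chromosome 3 the short arm held 49.1% of the bound genes, 38 of the 71 at or above the 90th percentile and 5 of the strongest 8. The median of the bound genes was 36.6, 22.4 and 20.7 on the short arm of chromosome 7, close to the 39.1, 22.6 and 21.9 on that of chromosome 3, and 25.7, 14.9 and 13.8 on the long arm of chromosome 7.

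On chromosome 3 the strongest promoter peak by mean rank was that of CNBP (ENSG00000169714), a nucleic acid binding protein with zinc knuckles, at 69.6, 46.8 and 40.7. Its peak in A spanned chr3:128901979-128903367, with the summit 276 bp upstream of the nearest CNBP TSS, in an exon of a non-coding transcript. Next came a single peak shared by GNL3, a nucleolar GTPase, and PBRM1, a subunit of the PBAF chromatin remodelling complex, at 62.7, 46.1 and 42.9. DENND6A was at 59.9, 53.6 and 52.3, the highest values of B1 and B2 on this chromosome. GK5, ZNF148, the phosphatase gene PTPN23 and NCKIPSD followed, each at 39.1 or more in every replicate. All 8 had backgrounds above the genome-wide one.

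At the other end of chromosome 3, CTDSPL was at 6.34, 4.18 and 4.28 and SUSD5 at 4.72, 4.25 and 4.04. P3H2, a collagen prolyl hydroxylase, was at 6.31, 3.28 and 3.32, and SLITRK3, a synaptic membrane protein gene, at 4.08, 3.86 and 3.95. These promoters held 12 to 20 fragments at their summits, against 139 to 209 at the 8 strongest.

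On chromosome 7 the strongest promoter was that of YKT6 (ENSG00000106636), a SNARE protein of vesicle fusion, at 67.0, 38.2 and 36.5. Its peak in A spanned chr7:44240255-44241011, with the summit 118 bp downstream of the nearest TSS, in an untranslated region. FKBP9 was at 71.7, 41.3 and 32.9, DPY19L1 at 61.2, 39.2 and 34.5 and ZDHHC4, a palmitoyltransferase gene, at 65.8, 41.0 and 32.5. EIF2AK1, the heme-regulated kinase of eIF2α, was at 58.5, 37.7 and 32.4, and YAE1, TMED4 and AVL9 completed the 8. YKT6, FKBP9, DPY19L1, TMED4 and AVL9 carried the genome-wide background in each replicate, and held 90 to 183 fragments at their summits.

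The weakest promoters of chromosome 7 among the bound protein-coding genes were those of GAL3ST4 (6.62, 4.77 and 5.73), AMPH (7.38, 5.98 and 4.09), BAIAP2L1 (7.79, 4.09 and 5.26) and KLF14 (3.99, 4.43 and 4.27). They held 11 to 20 fragments. KLF14, an imprinted transcription factor gene without introns, had its summit in A in its coding exon, 134 bp downstream of the TSS.

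Genes of cancer and melanoma biology were listed for each chromosome, 24 each. On chromosome 3, 22 of 24 carried a promoter peak in all replicates (91.7%, against 60.2% for all protein-coding genes), SOX2 did in 2 replicates, and TP63 in none. On chromosome 7, 19 of 24 did (79.2%), SMO in 2 replicates and DLX5 in 1, and GPNMB, IKZF1 and HGF in none. Island-like sequence lay at the TSS of 20 of the 24 on chromosome 3 and 16 of the 24 on chromosome 7. Of all protein-coding genes with such sequence, 84.0% and 76.1% were bound. Neither count was tested, since the lists were written with earlier results known.

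On chromosome 3 the adhesion and WNT signalling gene CTNNB1, which encodes β-catenin, was at 60.6, 35.5 and 39.2, and PIK3CB at 62.0, 32.6 and 34.7. The tumour suppressors VHL and BAP1 were at 56.3, 30.5 and 28.0 and at 56.3, 30.1 and 29.7. RHOA, the small GTPase of cell contraction, was at 45.3, 39.0 and 28.9, PRKCI at 50.4, 29.0 and 29.9, ATR at 46.5, 25.1 and 27.2 and RASSF1 at 43.2, 25.9 and 27.1. These, like PBRM1, were in the upper part of the list.

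MITF, the master transcription factor of melanocytes, was at 37.6, 20.4 and 24.6, near the middle of the bound genes of chromosome 3 (mean percentile 53.2). PIK3CA, GATA2, SETD2, ECT2 and TGFBR2, the type II receptor of TGFβ, lay between percentiles 22.7 and 39.5, TGFBR2 at 23.9, 14.97 and 14.1. FOXP1, MECOM, BCL6, WNT5A and FHIT were at percentiles 7.2 to 14.1, with WNT5A at 13.6, 7.8 and 8.5 and FHIT at 11.6, 7.3 and 9.5. FOXP1, MECOM and BCL6 encode transcription factors and WNT5A a WNT ligand.

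On chromosome 7 the mismatch repair gene PMS2 led the list at 57.3, 33.4 and 25.6. EZH2, the methyltransferase of Polycomb complex PRC2, was at 38.2, 22.8 and 21.0, CUL1 at 35.8, 24.2 and 19.7, EGFR at 34.3, 21.1 and 22.6 and the dioxin receptor gene AHR at 41.2, 20.5 and 15.8. GLI3 and RAC1 lay at percentiles 57.2 and 56.8 of the bound genes of chromosome 7. These were the upper 7 of the 19 bound members.

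BRAF, the kinase most often mutated in melanoma, was at 27.7, 12.3 and 11.2 (mean percentile 33.5), and TWIST1, CDK6, RHEB, TRRAP and KMT2C lay just below or above it, the highest being TWIST1 at percentile 35.6. ETV1, MET and POT1 were at percentiles 15.9 to 17.4, MET at 14.4, 8.9 and 10.8. Among the lowest were INHBA (8.7, 7.1 and 5.6), a subunit of activin, and CAV1 (6.6, 6.5 and 6.2), which encodes caveolin-1. The median percentile was 56.0 for the list of chromosome 3 and 32.6 for that of chromosome 7, each ranked within its own chromosome.

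The chromatin, DNA repair and ribosomal protein genes listed were bound with 1 exception, where 60.2% of all protein-coding genes were. Most genes of each list had island-like sequence at the TSS (chromatin regulators 18 of 19 on chromosome 3 and 11 of 16 on chromosome 7). Of all such genes, 84.0% were bound on chromosome 3 and 76.1% on chromosome 7. Chromatin regulators were bound at 19 of 19 genes on chromosome 3, from PBRM1 and SMARCC1 (66.0, 33.7 and 34.8) down to SATB1 and TBL1XR1 (11.8, 9.0 and 7.8), and at 15 of 16 on chromosome 7, where ACTL6B, the neuronal actin-like subunit of the BAF complex, had no peak. DNA repair and replication genes were bound at 15 of 15 and 12 of 12, with RAD54L2 (56.5, 36.6 and 34.4) and XPC on chromosome 3 and RINT1 (54.2, 27.3 and 32.9) and PMS2 on chromosome 7 as the strongest. Cytosolic ribosomal protein genes, found by symbol on chromosome 3 only, were bound at 9 of 9, led by RPSA (48.1, 41.1 and 36.8). Mitochondrial ribosomal protein genes were bound at 4 of 4 on both, from MRPS25 (77.9, 34.1 and 32.1) to MRPS22 on chromosome 3 and from MRPS24 (38.1, 32.7 and 30.9) to MRPS33 on chromosome 7. The MRPS25 value in A was the highest of chromosome 3.

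ZNF genes, which encode zinc finger proteins, were bound at 14 of 19 on chromosome 3 and 27 of 35 on chromosome 7 (73.7% and 77.1%). ZNF148 and ZNF621 (63.6, 31.3 and 40.5) led on chromosome 3, ZNF786 (54.9, 31.4 and 24.97) and ZNF425 (40.5, 27.6 and 29.7) on chromosome 7. Solute carrier genes were bound at 13 of 25 and 6 of 12, with SLC25A36 (61.5, 34.3 and 33.8) and SLC37A3 (41.3, 19.4 and 23) the strongest and SLC12A8 and SLC13A1 among those without a peak. Both shares lay below the 60.2% of all protein-coding genes.

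**Figure D5:**
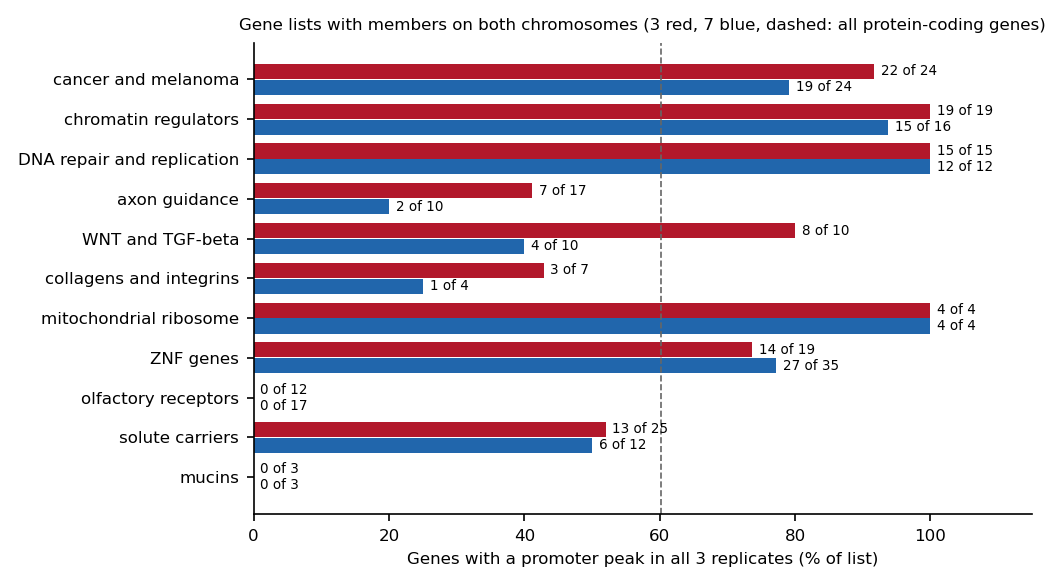
Share of the genes of each list with a promoter peak in all 3 replicates on chromosome 3 (red) and chromosome 7 (blue), with the number bound of the number listed beside each bar and a dashed line at the 60.2% of all protein-coding genes. Chromatin, DNA repair and mitochondrial ribosome genes lie above the line on both chromosomes, and axon guidance, collagen and integrin, solute carrier, olfactory receptor and mucin genes below it.

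The lists of axon guidance, collagen and integrin, chemokine receptor, olfactory and taste receptor, mucin and CYP3A genes had bound shares under the 60.2% of all protein-coding genes. Of axon guidance genes, 7 of 17 were bound on chromosome 3, with ROBO1 (43.5, 21.2 and 20.6) and PLXNB1 (31.5, 25.4 and 20.2) as the strongest and ROBO2 (7.6, 4.2 and 4.0) as the weakest, and 2 of 10 on chromosome 7, EPHB4 and SEMA3C. CHL1 and EPHA3 on chromosome 3 and RELN and SEMA3A on chromosome 7 had no peak. Collagen and integrin genes were bound at 3 of 7 (ITGB5, COL7A1 and COL8A1) and 1 of 4 (ITGB8), and COL1A2 had none. Chemokine receptor genes of chromosome 3 were bound at 2 of 13, ACKR2 and CCRL2, and CX3CR1 was among those without a peak. No olfactory receptor gene (0 of 12 and 0 of 17), mucin gene (0 of 3 and 0 of 3) or, on chromosome 7, taste receptor gene (0 of 9) or CYP3A gene (0 of 4) was bound in all replicates. MUC12 alone of these had a peak in 1 replicate. None of the olfactory receptor, mucin, taste receptor and CYP3A genes listed had island-like sequence at the TSS. Of all protein-coding genes without it, 35.5% were bound on chromosome 3 and 30.6% on chromosome 7. Bin 15 of chromosome 7 had the lowest bound share of the bins used, 34.1% of 85 genes, yet its median promoter fold enrichment was 24.4, 16.4 and 15.6.

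Genes of WNT and TGFβ signalling lay on either side of the 60.2% of all protein-coding genes. They were bound at 8 of 10 on chromosome 3 (80%), from CTNNB1 and DVL3 (45.7, 23.6 and 27.4) to WNT5A and FSTL1 (15.8, 9.4 and 5.2), and at 4 of 10 on chromosome 7 (40%), SMURF1 (32.7, 13.5 and 15.01), GRB10, FZD1 and INHBA. WNT7A and CHRD on chromosome 3 and WNT2 and WNT16 on chromosome 7 had no peak. In the HOXA cluster on chromosome 7, the clustered homeobox genes of body axis patterning with the neighbouring EVX1, 8 of 12 were bound (66.7%, near the share of all genes), led by HOXA10 (34.3, 24.6 and 22.3) and HOXA4 (26.9, 19.4 and 14.8), and EVX1 and HOXA2 had no peak.

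A pair of gene clusters known for deletions in disease were listed as well. In the tumour suppressor cluster around RASSF1 on the short arm of chromosome 3, 10 of 14 genes were bound (71.4%, against 64.8% of the protein-coding genes of chromosome 3), led by the peak shared by NPRL2 and CYB561D2 (67.5, 36.1 and 33.7), with SEMA3B (9.2, 8.8 and 6.0) the weakest and CACNA2D2 and HYAL1 without a peak. In the region deleted in Williams syndrome on the long arm of chromosome 7, 14 of 20 genes were bound (70%, against 58.1% of those of chromosome 7), from TBL2 (49.9, 27.3 and 27.9) to CLDN4 (4.9, 7.2 and 5.6), and CLDN3 and ELN had no peak.

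Regions away from TSS windows in all 3 replicates numbered 61 on chromosome 3 and 44 on chromosome 7. By the summit in A, 26 and 27 were intergenic and 29 and 17 intronic, at a median of 8175 and 9957 bp from the nearest TSS. Their median fold enrichment was 9.28, 6.005 and 6.17 on chromosome 3 and 11.9, 8.01 and 7.97 on chromosome 7, so by this measure chromosome 7 was higher in each replicate. Over all peaks outside TSS windows, median summit fragments were 19, 20 and 21 on chromosome 3 and 19, 17 and 19 on chromosome 7. Backgrounds there averaged 2.85 and 2.07 fragments, and the part of the background was not tested. By mean rank over the replicates, the first on chromosome 3, at chr3:129345384-129346911 between genes and 20374 bp from the TSS of PLXND1, a semaphorin receptor gene, was at 28.6, 15.8 and 18.8, and was the highest in no single replicate. The next ranked lay 5173 bp from the TSS of HES1, a Notch target gene (chr3:193858803-193860060), and in a coding exon of CAND2 (chr3:12851387-12851906). On chromosome 7 the first 3 lay 11060 bp from the TSS of SP8, a zinc finger transcription factor gene (chr7:20837184-20838379), at 37.8, 25.3 and 23.1, in an intron of TNRC18 (chr7:5436326-5437319), at 42.1, 25.2 and 20.4 and so the higher in A, and 24923 bp from ZNF786 (chr7:148762021-148763077). The sequences at the PLXND1 and SP8 regions, printed above, are rich in CpG.

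The widest regions with a peak in all 3 replicates lay at promoters. On chromosome 3 they were those of the transcription factor gene FOXP1 (2944 bp), the linker histone gene H1-10 (2773 bp) and the chloride channel gene CLCN2 (2772 bp). On chromosome 7 they were those of HNRNPA2B1 (2419 bp), which encodes an RNA-binding protein, CDK13 (2115 bp) and KBTBD2 (2022 bp). Their fold enrichment was spread widely, from 17.9, 12.2 and 11.7 at FOXP1 to 44.9, 21.9 and 22.1 at CLCN2 on chromosome 3, and it was 46.4, 19.2 and 19.0 at CDK13 on chromosome 7. The widths given are those of regions merged over replicates. Peaks of the single replicates were 1766, 1593 and 843 bp wide at FOXP1, 2773, 1431 and 1527 bp at H1-10 and 1591, 1016 and 988 bp at CDK13.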

How the data were processed

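Peak lists of 3 PHF8 ChIP replicates in SKMEL-147 cells were analysed, and the 2 inputs entered only through the peak values. As the labels and methods state, reads were aligned by the authors to hg19 with Bowtie2, and they called narrow peaks with MACS for each replicate against input, at a fold enrichment above 1.5. The submitters' processing notes also name Picard, with no step given. Read totals and whether duplicates were removed are not given in the sources used here, so depth is known only as fragments at summits. The authors deposited fold enrichment as a linear ratio, the p-value and the q-value as −log10 values, and a score, which was not used. All peaks of chromosomes 3 and 7 had a q-value under 0.05.

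A whole number of fragments at each summit and the background were solved from the deposited fold enrichment and p-value. The fold enrichment was taken as (fragments + 1) over (background + 1), and the p-value under a Poisson law. The solution matched the deposited −log10 p-value within 0.001 for every peak. The solver was checked on simulated peaks made by the same formula, so that check does not cover whether the deposited values follow it. Every transcript start of GENCODE release 44, in its version for GRCh37 (the build of hg19), counted as a TSS. A promoter peak came within 1 kb of a TSS, a bound gene had one in all 3 replicates, regions were merged where peaks overlapped by at least 1 bp, and arms were split at the centromere gap. Percentiles rank bound protein-coding genes within their chromosome.

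The chromosomes, tests and gene lists (cancer and melanoma, chromatin, DNA repair, axon guidance, WNT and TGFβ, chemokine receptors, HOXA, mucins, collagens and integrins, the RASSF1 and Williams clusters, CYP3A, ribosomal and mitochondrial ribosomal proteins, ZNF, olfactory and taste receptors, solute carriers) were chosen with earlier results of these data known, the lists from general knowledge. Named were the 8 strongest and 4 weakest bound promoters of each chromosome, the cancer genes (some are counted but not reported here by name), examples of each other list, the 3 strongest regions outside TSS windows, the 3 widest regions and the leading genes of the extreme bins. Within-chromosome differences were tested by exact two-sided sign-flip permutation over replicates. Python 3.11.15, pandas 2.3.3, scipy 1.17.1 and statsmodels 0.14.6 were used. Alternatives were other TSS sets and windows, stricter cutoffs, summit fragments, other bins and overlaps, and leaving out each replicate.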

Additional observations from a re-analysis of the deposited data

How the results depend on the processing

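Of 98 recomputed values, 80 stayed within 1 SD of the main value or, where tested, kept their direction. For the log2 difference of median promoter fold enrichment between chromosomes 3 and 7 (0.35), summit fragments gave 0.74 and island-like promoter peaks alone 0.43. Alternatives chosen after seeing the data gave 0.23 for fragments over background, 0.069 for peaks at the genome-wide background, 0.11 and 0.43 against the short and long arms of chromosome 7, and -0.11 for promoter peaks without island-like sequence. The difference in peaks per 100 TSS positions (-0.799) became 2.86 with 1 TSS per gene and -1.99 over protein-coding genes only. The difference in median width (183 bp) was 242 bp at promoters, 208 bp above a fold enrichment of 4, and, added after seeing the data, 99.8 and 211 bp against the short and long arms of chromosome 7. The ratio of the highest to the lowest bin was 2.21 with bins of 5 Mb on chromosome 3, and on chromosome 7 (2.25) it was 2.37 with bins of 5 Mb, 1.91 with bins of 20 Mb, 2.35 in summit fragments and 2.24 to 2.27 without each replicate in turn. The causes of these changes were not tested.

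Of the genes named, GNL3, P3H2, CTNNB1, RASSF1, WNT5A, GATA2, AHR and GLI3 had no promoter peak with 1 TSS per gene, and above a fold enrichment of 4 P3H2, SLITRK3 and KLF14 were not called in all replicates. No paired analysis was possible between ChIP and input because peak lists of the inputs were not analysed here. Differences among the ChIP peaks were taken within each replicate. The exact permutation tests over 3 replicates cannot go below p = 0.25. Without read totals the depth limits what is known of promoters without a peak: a peak not listed is not shown to be absent.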
